A study of Homo sapiens with 6 samples.

Results

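The genes described here are 10 sensors and mediators of the response to double-stranded RNA: DDX58, IFIH1, DHX58, MAVS, TLR3, EIF2AK2, ZC3HAV1, DDX60, ADAR and PNPT1. They were chosen by name and are 10 of the 61695 loci in the authors' deposited count tables. All 10 were among the 30206 loci with an adjusted p. The study sequenced messenger RNA from EndoC-βH1, a human pancreatic beta cell line, in 3 control libraries and 3 libraries made after 24 h with cytokines. Per the labels, the cocktail held IL-1β at 5 ng/ml, TNF-α at 10 ng/ml, IFN-γ at 50 ng/ml and IL-17 at 100 ng/ml, and all cells had adhered for 24 h in serum-free medium with 11 mM glucose. The labels place the control cells before exposure, while the extraction protocol has cells with and without cytokines over the same 24 h, so the cytokines and time in culture cannot be told apart. Nothing in the labels says that the libraries of a group came from separate cultures, so the p-values may measure technical spread only.

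Cells read double-stranded RNA as a sign of viral replication. RIG-I (the product of DDX58) and MDA5 (IFIH1) are cytosolic helicases that bind such RNA and signal through MAVS, an adapter on the outer mitochondrial membrane, to kinases that switch on interferon genes, while LGP2 (DHX58) lacks the signalling domains and tunes the other receptors. TLR3 reads double-stranded RNA in endosomes, PKR (EIF2AK2) halts translation, ZAP (ZC3HAV1) marks viral RNA for decay, ADAR edits adenosine to inosine and so keeps the cell's own RNA from the sensors, and the PNPT1 enzyme degrades RNA in mitochondria. In beta cells these genes are known from work on enteroviruses, and IFIH1 is a risk gene for type 1 diabetes.

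The promoter sequences below are those that held a match to either form of the interferon-stimulated response element described below. Of their genes, only PNPT1 did not pass the test. The promoters of MAVS, ZC3HAV1 and ADAR are not printed. Each runs 5′ to 3′ on the gene's strand from 210 bases before the RefSeq transcript start, with 230 bases printed, build GRCh38.p14. Capitals mark matches to any of 3 motifs, searched on both strands with overlaps counted. These were the interferon-stimulated response element ISRE (GAAANNGAAA), the same element with a 1-base spacer (GAAANGAAA), and GAS (TTCNNNGAA), the gamma-activated sequence through which IFN-γ acts. The 1-base form was added after the promoter sequences had been read.

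TLR3 (chr4:186068946-186069175, + strand): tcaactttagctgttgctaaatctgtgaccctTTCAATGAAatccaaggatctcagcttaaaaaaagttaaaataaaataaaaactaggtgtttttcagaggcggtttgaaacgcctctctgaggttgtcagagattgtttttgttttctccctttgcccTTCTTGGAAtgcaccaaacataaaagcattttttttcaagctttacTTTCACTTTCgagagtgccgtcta
DDX60 (chr4:168318733-168318962, − strand): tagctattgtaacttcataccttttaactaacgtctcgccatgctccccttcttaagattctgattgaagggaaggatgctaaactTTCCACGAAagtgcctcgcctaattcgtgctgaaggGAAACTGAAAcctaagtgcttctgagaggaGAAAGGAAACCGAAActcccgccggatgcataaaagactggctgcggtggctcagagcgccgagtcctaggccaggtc
IFIH1 (chr2:162318665-162318894, − strand): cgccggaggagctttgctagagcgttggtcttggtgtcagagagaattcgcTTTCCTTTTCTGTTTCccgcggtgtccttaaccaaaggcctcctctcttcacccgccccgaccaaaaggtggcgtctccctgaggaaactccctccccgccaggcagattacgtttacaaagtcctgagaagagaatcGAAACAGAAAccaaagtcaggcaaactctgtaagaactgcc
DDX58 (chr9:32526177-32526406, − strand): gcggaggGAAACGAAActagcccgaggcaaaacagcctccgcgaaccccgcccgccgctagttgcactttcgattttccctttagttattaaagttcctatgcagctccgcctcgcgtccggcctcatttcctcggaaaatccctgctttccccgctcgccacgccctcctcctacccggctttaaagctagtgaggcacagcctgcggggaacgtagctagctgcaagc
EIF2AK2 (chr2:37156961-37157190, − strand): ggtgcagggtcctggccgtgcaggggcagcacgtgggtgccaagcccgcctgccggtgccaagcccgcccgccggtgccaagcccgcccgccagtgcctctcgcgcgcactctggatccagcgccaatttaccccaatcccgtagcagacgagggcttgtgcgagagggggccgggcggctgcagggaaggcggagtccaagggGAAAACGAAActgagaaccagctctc
PNPT1 (chr2:55693825-55694054, − strand): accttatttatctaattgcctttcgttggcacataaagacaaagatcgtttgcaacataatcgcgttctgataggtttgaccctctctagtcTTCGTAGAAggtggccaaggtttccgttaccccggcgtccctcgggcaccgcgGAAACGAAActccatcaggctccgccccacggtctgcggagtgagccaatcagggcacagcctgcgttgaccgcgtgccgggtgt

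RefSeq promoters of 300 bases, 250 before and 50 after the start, were matched for 9 of the 10 members, in 11 windows. DHX58 had no entry. An ISRE match lay in 4 members, against 3.57% of 35116 RefSeq promoters of the same length. IFIH1 held 3 of them, at positions −159 to −150, −153 to −144 and −21 to −12 from the start, the former pair overlapping. DDX60 held an ISRE match at −88 to −79 and another at −53 to −44, TLR3 held 1 at −4 to 5, and EIF2AK2 held 1 at −6 to 3. The 1-base form lay in 3 members, DDX58, DDX60 and PNPT1, against 3.12% of all promoters, and overlapped an ISRE match in DDX60. GAS lay in 4 members, TLR3, ZC3HAV1, DDX60 and PNPT1, against 7.66% of all promoters. MAVS and the 3 RefSeq starts of ADAR held none of these letters in the window. None of these ADAR windows covers the start of its p150 transcripts, so nothing about that start can be read from them. PNPT1, whose RNA did not pass the test, held both a 1-base ISRE and a GAS match. A match of letters is a description and not a bound site.

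**Figure D1:**
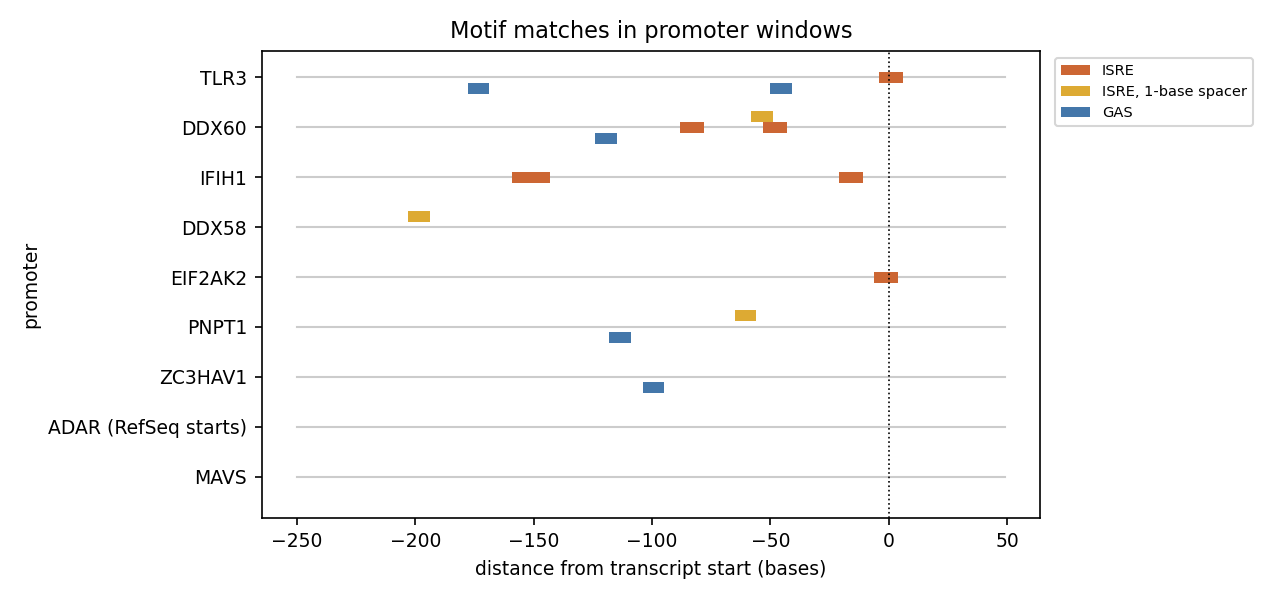
Motif matches along the 300-base promoter windows, with the distance from the transcript start in bases on the x axis and 1 promoter per line. Orange bars are ISRE, yellow bars the 1-base form and blue bars GAS, and the dotted line is the start. IFIH1 holds 3 ISRE matches and MAVS none of the 3 motifs.

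Most members rose after cytokine exposure. In the authors' deposited table, 8 of the 10 rose and 0 fell at a DESeq adjusted p under 0.05, while 18.0% of all tested loci rose and 19.7% fell. None of the members was lower at an unadjusted DESeq p under 0.05 either. In the authors' deposited Cuffdiff gene table, 8 members rose and 0 fell by q, against 17.8% and 17.9% of 21865 tested genes. The median log2 fold change of the members was 1.30 in the authors' deposited table, and that of all tested loci was 0.05 with an upper quartile of 0.52. Among the members, 6 were called and at least 2-fold higher, as were 6.53% of all tested loci. DDX58 was counted by its whole locus, which TOPORS shares. The authors' deposited tables used here hold 1 value per group and no value per library, so whether single libraries of the groups overlap cannot be read from them. Errors below are the standard errors (SE) of the authors' fit over 3 libraries a group, and group levels were computed from the mean and fold change of each locus.

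The authors' deposited tables sum to a mean of 40881975 normalized counts a library. The SE of abundant loci corresponded to a median coefficient of variation between libraries, beyond counting noise, of 2.70%. Of 10 beta cell markers, 3 rose, 4 fell and 3 did not pass in the authors' deposited table. PDX1, a beta cell transcription factor, stood at 17183 and 16950 counts, MAFA fell by 1.63, SLC30A8 by 0.63, the locus of INS by 0.57 and PCSK1 by 0.27 on that log2 scale, while the locus of IAPP rose by 2.25, CHGA by 1.12 and ABCC8 by 0.15 (DESeq, the authors' deposited table). The 8 immune markers summed to 24519 and 22623 counts there, nearly all from a locus that CD68 shares with EIF4A1 and others. Of the rest, CD14 went from 92.9 to 75.4, CSF1R from 9.10 to 17.3, PTPRC from 2.71 to 0.657 and LYZ from 0.639 to 2.70 counts in the authors' deposited table, and CD3E, CD163 and MS4A1 were under 1 count. Summed endothelial markers, 4 genes, went from 3.94 to 6.42 normalized counts by the authors' deposited table. The 6 fibroblast genes went from 2471 to 3356 there, with COL1A1 going from 532 to 1394 (log2 1.39, DESeq adjusted p 6.25e-104) and the locus of PDGFRA and FIP1L1 from 1906 to 1927. The part of these marker shifts in the members' values was not tested. In these bulk libraries, more RNA per cell and more cells of a responding kind cannot be told apart.

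Per transcript length, ADAR was the most abundant member in both groups of the authors' deposited table, at 45.9 FPKM (fragments per kilobase, scaled to sequencing depth) in control and 120 FPKM in cytokine cells. MAVS came next in control cells of the authors' deposited table, at 17.1 FPKM, and the DDX58 locus, ZC3HAV1, PNPT1 and EIF2AK2 lay between 12.4 and 13.6 FPKM. IFIH1 stood at 6.57 FPKM there. DHX58, DDX60 and TLR3 were lowest, at 0.826, 0.738 and 0.0162 FPKM in the authors' deposited table. After cytokines, the order in the authors' deposited table was ADAR, IFIH1 at 62.2, DDX60 at 39.1, EIF2AK2 at 28.4, ZC3HAV1 at 25.4, the DDX58 locus at 25.3, MAVS at 17.4, PNPT1 at 13.2, DHX58 at 4.09 and TLR3 at 1.05 FPKM. Among RIG-I, MDA5 and LGP2, MDA5 thus had the most abundant RNA in cytokine cells, with more than the whole DDX58 locus. OAS1 and OAS3, which are not members, stood higher, at 122 and 115 FPKM in cytokine cells of the authors' deposited table. The FPKM values carry no error, so neighbours in these orders were not tested against each other.

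**Figure D2:**
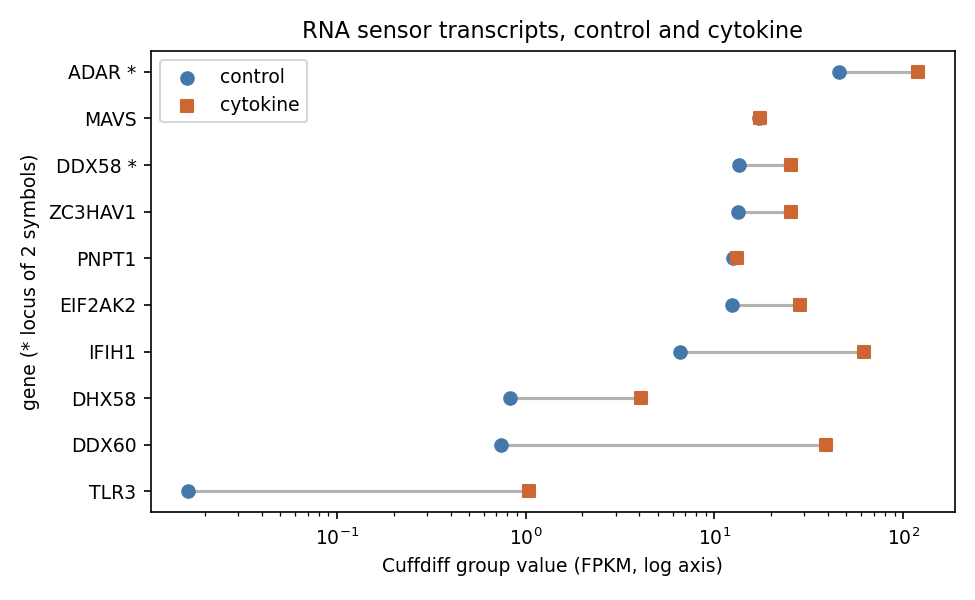
FPKM of each member in control and cytokine cells, on a log axis, as the authors' deposited Cuffdiff group values with no error. TLR3 moves from 0.0162 to 1.05 FPKM and MAVS from 17.1 to 17.4 FPKM.

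Among the cytosolic receptors, IFIH1 (MDA5, reader of long double-stranded RNA, chr2:162267074-162318684, − strand, hg38) went from 1025 to 9219 normalized counts by the authors' deposited table. Its log2 fold change was 3.17 ± 0.04 (SE, DESeq adjusted p listed as 0), an 8.99-fold rise. Only 718 of the tested loci had a larger log2 fold change in the authors' deposited table. DHX58 (LGP2, chr17:42101404-42112714, − strand) rose from 37.2 to 260 normalized counts by the authors' deposited table, by 2.81 ± 0.19 on the log2 scale (SE, DESeq adjusted p 4.18e-50). Its counts were low, and its SE corresponded to a coefficient of variation of 9.80% between libraries beyond counting noise. That was the largest such value of the members, while the largest SE was that of TLR3, 0.67. The 95% intervals of these 2 log2 fold changes, 3.09 to 3.24 for IFIH1 and 2.44 to 3.17 for DHX58, overlapped.

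DDX58 (RIG-I, reader of short RNA with free triphosphate ends, chr9:32455302-32526208, − strand) shared its locus with TOPORS, a ubiquitin and SUMO ligase gene. The whole locus went from 2322 to 4604 normalized counts by the authors' deposited table, by 0.99 ± 0.04 on the log2 scale (SE, DESeq adjusted p 4.75e-144). Its transcripts told the parts of the locus apart in the authors' deposited transcript table. There, transcripts named DDX58 went from 1.62 to 13.0 FPKM together, 8.02-fold, and those named TOPORS from 11.3 to 10.7 FPKM. The main RIG-I transcript, ENST00000379883, which codes 925 residues, went from 1.55 to 12.7 FPKM in the authors' deposited table, with a log2 change of 3.03 (Cuffdiff q 0.000833). Both TOPORS transcripts missed the threshold in the authors' deposited table, with Cuffdiff q of 0.733 and 0.972. DDX58 transcripts thus made up 11.9% of the locus in control and 51.1% in cytokine cells of the authors' deposited table. By Cuffdiff the log2 change of the whole locus was 0.90, below the 3.03 of its main RIG-I transcript.

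TLR3, the endosomal receptor (chr4:186068911-186088073, + strand), went from 1.59 to 152 normalized counts by the authors' deposited table. The log2 fold change was 6.58 ± 0.67 (SE, DESeq adjusted p 8.43e-22), and 99 tested loci exceeded it. The fitted control level amounts to 4.76 reads over the 3 control libraries in the authors' deposited table, so the fold of 95.9 has a 95% interval of 38.6 to 239. No TLR3 transcript passed the Cuffdiff test in the authors' deposited transcript table, the form of 904 residues having a q of 0.598. The gene total passed in the authors' deposited table, with a Cuffdiff q of 0.00612. TLR3 thus began near 0 and ended, per length, above the control levels of DDX60 and DHX58.

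DDX60, a helicase described as an aid to RIG-I-like receptors (chr4:168216291-168318883, − strand), went from 188 to 8499 normalized counts by the authors' deposited table. That was a 45.3-fold rise with a 95% interval of 41.4 to 49.5 (log2 5.50 ± 0.07 SE, DESeq adjusted p listed as 0). Its paralogue DDX60L rose by 2.70 ± 0.05 on the log2 scale of the authors' deposited table (SE, DESeq adjusted p listed as 0). Reads that both copies share could have been split between them. The transcript of 1712 residues carried most of the DDX60 level, 29.8 FPKM in cytokine cells of the authors' deposited table, up from 0.636. A form of 190 residues was listed at 9.04 FPKM there but missed the threshold (Cuffdiff q 0.461).

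Of the effectors, EIF2AK2 (PKR, chr2:37099210-37157522, − strand) went from 5099 to 11865 normalized counts by the authors' deposited table, by 1.22 ± 0.03 on the log2 scale (SE, DESeq adjusted p listed as 0). ZC3HAV1 (ZAP, chr7:139043515-139132122, − strand) went from 3853 to 6613 normalized counts by the authors' deposited table, by 0.78 ± 0.03 on the log2 scale (SE, DESeq adjusted p 2.07e-148). ADAR (chr1:154581695-154628013, − strand, in a locus with RP11-61L14.6) went from 13201 to 34390 normalized counts by the authors' deposited table, by 1.38 ± 0.02 on the log2 scale (SE, DESeq adjusted p listed as 0). These are a translation brake, an RNA decay factor and an editor, and the 95% intervals of their log2 fold changes did not overlap with one another.

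The adapter and the mitochondrial enzyme did not pass the test. MAVS (chr20:3846799-3876123, + strand) stood at 4615 normalized counts in control and 4504 in cytokine cells of the authors' deposited table. Its log2 fold change was −0.035 ± 0.03 (SE, DESeq adjusted p 0.471), with a 95% interval of −0.10 to 0.03. The sign of the MAVS value turned in the authors' deposited Cuffdiff table, to 0.018 (q 0.893). PNPT1 (chr2:55634061-55693863, − strand) stood at 2013 and 2070 normalized counts by the authors' deposited table, with a log2 change of 0.04 ± 0.04 (SE, DESeq adjusted p 0.559) with a 95% interval of −0.05 to 0.13. Over the 9 neighbouring pairs in the order of log2 fold changes, 3 had overlapping intervals: TLR3 with DDX60, IFIH1 with DHX58, and PNPT1 with MAVS. DDX58 stood in this order by its whole locus with TOPORS.

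**Figure D3:**
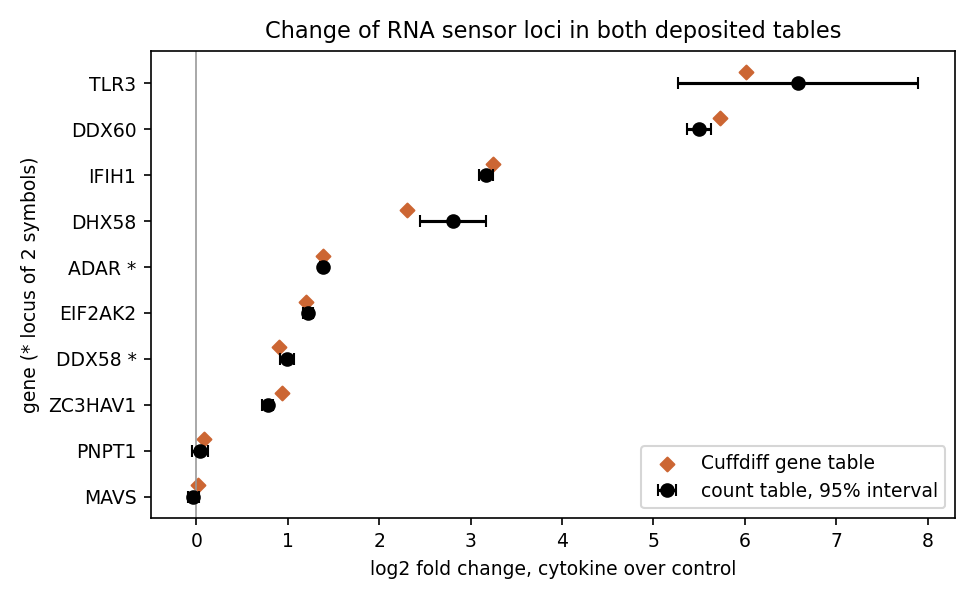
Log2 fold change, cytokine over control, of each member in the authors' deposited count table with 95% intervals, beside the deposited Cuffdiff value. MAVS and PNPT1 lie at 0 within their intervals, and TLR3 has the widest interval, 5.27 to 7.90.

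The transcripts of a member did not all move to the same extent. Of 274669 transcripts in the authors' deposited table, 54 carried a member's symbol and 34 of these were tested. Among the 34, 11 rose and 0 fell by Cuffdiff q, against 5.17% and 4.70% of all 95649 tested transcripts, and 0 were lower at an unadjusted Cuffdiff p under 0.05. The 11 belonged to 8 members, with none from TLR3 or MAVS. A further 30 assembled transcripts in these loci had no symbol. Cuffdiff assigns reads that several transcripts share by a model, and differences between transcripts of a gene were not tested.

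ADAR is read from separate starts. The start of the p150 form, the cytoplasmic editor known to be interferon-inducible, lies at base 154608186 of chromosome 1, and that of the constitutive p110 form lies 19782 bases upstream at base 154627968, both by GENCODE release 44 on hg38. In the authors' deposited transcript table, transcripts from the p150 start went from 7.70 to 63.0 FPKM, 8.18-fold, and those from the p110 start from 28.7 to 36.4 FPKM, 1.27-fold. The p150 transcript ENST00000368474, of 1226 residues, rose by 3.17 on the log2 scale of the authors' deposited table (Cuffdiff q 0.000833). The p110 transcript ENST00000368471, of 931 residues, rose by 0.35 there (Cuffdiff q 0.00982). The share of p150-start transcripts in the locus went from 16.8% to 52.4% in the authors' deposited table, and that of p110-start transcripts from 62.5% to 30.3%. ADAR transcripts without a symbol held 13.2% and 13.4% there.

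ZC3HAV1 makes a long ZAP form that ends in a PARP-like domain and a short form that lacks it. The short form of 699 residues went from 0.938 to 4.11 FPKM in the authors' deposited table, with a log2 change of 2.13 (Cuffdiff q 0.000833). The long form of 902 residues, the main one, went from 10.6 to 17.9 FPKM there, a log2 fold change of 0.75 (Cuffdiff q 0.000833). An extended form of 1024 residues went from 0.991 to 1.39 FPKM in the authors' deposited table and missed the threshold (Cuffdiff q 0.486). The short form made up 7.06% of the locus in control and 16.1% in cytokine cells of the authors' deposited table.

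For the other members, the main coding transcript moved much like the gene in the authors' deposited transcript table. The IFIH1 transcript ENST00000263642 went from 5.56 to 55.3 FPKM and the EIF2AK2 form of 551 residues from 10.3 to 25.9 FPKM there. The MAVS form of 540 residues stood at 10.9 and 11.4 FPKM (Cuffdiff q 0.890) in the authors' deposited table. An assembled MAVS transcript without a symbol stood at 5.69 and 5.27 FPKM there (Cuffdiff q 0.891). The main PNPT1 form with a symbol, of 783 residues, stood at 5.86 and 6.27 FPKM there (Cuffdiff q 0.396). An assembled PNPT1 transcript without a symbol held nearly as much, 5.77 and 5.95 FPKM (Cuffdiff q 0.935). Only a retained-intron PNPT1 transcript passed, from 0.222 to 0.634 FPKM (Cuffdiff q 0.0379). DHX58 differed from these. The full LGP2 coding transcript of 678 residues was listed at 0.0189 and 0.524 FPKM in the authors' deposited table and missed the threshold (Cuffdiff q 0.455). The DHX58 transcripts that passed there were a decay-prone one of 50 coding residues, from 0.268 to 1.34 FPKM (Cuffdiff q 0.0104), and a retained-intron one, from 0.134 to 0.606 FPKM (Cuffdiff q 0.0401).

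**Figure D4:**
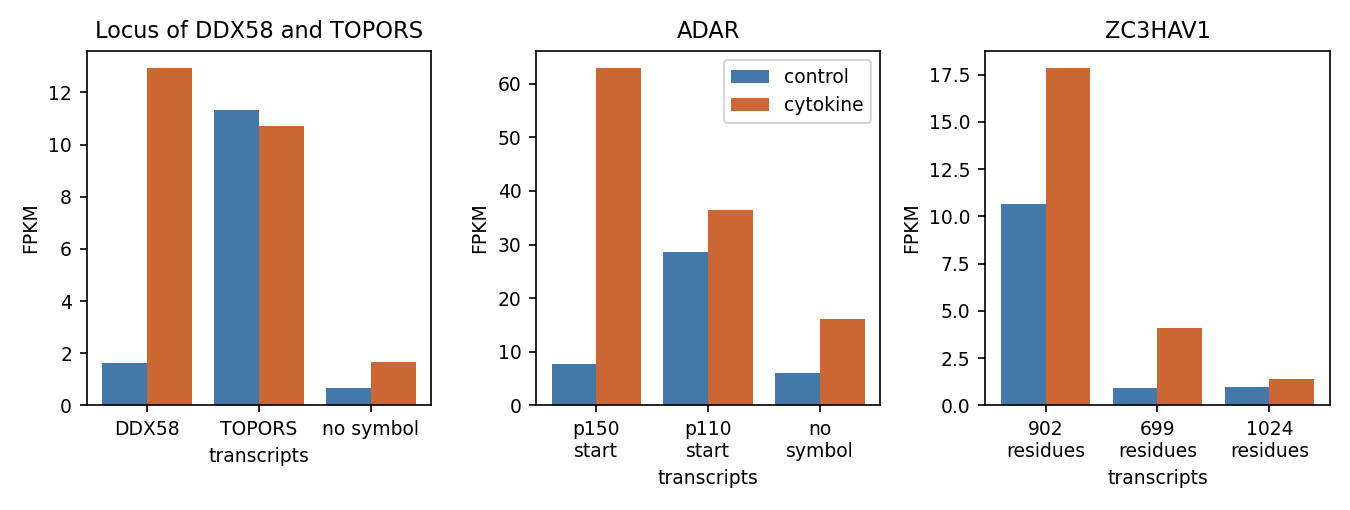
FPKM of transcripts of ADAR, ZC3HAV1 and the DDX58 locus in control and cytokine cells, as the authors' deposited Cuffdiff group values with no error. Transcripts from the ADAR p150 start go from 7.70 to 63.0 FPKM, and TOPORS transcripts in the DDX58 locus from 11.3 to 10.7 FPKM.

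IFIH1 lies head to head with GCA, which codes the calcium-binding protein grancalcin, and their starts are 156 bases apart. The 3 ISRE matches of the IFIH1 promoter also lay in RefSeq promoter windows of GCA. GCA went from 3051 to 2862 normalized counts by the authors' deposited table, with a log2 change of −0.09 ± 0.04 (SE, DESeq adjusted p 0.0408). It missed the threshold in the authors' deposited Cuffdiff table, at −0.20 (q 0.436). IFIH1 and its divergent neighbour thus did not rise together.

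Genes that act with the sensors were taken from 9 lists, which gave 122 tested loci. In the authors' deposited table, 51 of these rose and 40 fell by DESeq adjusted p, or 41.8% and 32.8%, against 18.0% and 19.7% of all tested loci. Their median log2 fold change was 0.05 there, equal at this precision to that of all tested loci. Of the 122 loci, 113 had a mean of at least 100 counts, while all tested loci went down to a mean of 1.34 counts. The shares called, here and for single lists, were not compared among loci of like abundance. The lists differed in how many of their loci rose or fell.

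Genes that signal below MAVS and TLR3 mostly rose. Of 20 loci, 17 rose and 0 fell by DESeq adjusted p in the authors' deposited count table, and 16 rose and 0 fell by Cuffdiff. Over all tested loci the shares were 18.0% and 19.7% by DESeq, and 17.8% and 17.9% by Cuffdiff. The median log2 fold change was 0.71 in the authors' deposited count table. None was lower at an unadjusted p under 0.05 by either tool. The kinase IKBKE rose by 3.16 ± 0.09 on the log2 scale of the authors' deposited table (SE, DESeq). UNC93B1, which carries TLR3 to endosomes, rose by 3.08 ± 0.12 there, the transcription factor IRF3 by 1.31 ± 0.04 and the TLR3 adapter TICAM1 by 1.10 ± 0.05 (SE, DESeq). These 4 were the loci of the list called at 2-fold or more. The kinase TBK1 rose by 0.63 in the authors' deposited table, and the most abundant locus, CHUK with ERLIN1, by 0.74 (DESeq). TRAF3, a ubiquitin ligase that binds MAVS, did not pass, at −0.038 in the authors' deposited table and 0.091 by Cuffdiff. FADD and AZI2 also missed the threshold in the authors' deposited count table, at 0.12 and −0.00058, but FADD passed by Cuffdiff (q 0.000232).

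Of the RIG-I-like receptor cofactors, 4 of 15 were higher and 3 lower by the authors' deposited table, and the median was −0.01. These shares lay near the 18.0% and 19.7% of all tested loci, so the counts are no result about the list. ZNFX1, a helicase that binds viral RNA at mitochondria, rose by 2.03 ± 0.03 there, TRIM25, a ubiquitin ligase of RIG-I, by 1.52 ± 0.03, the deubiquitinase CYLD by 1.44 ± 0.03 and the kinase RIOK3 by 0.29 ± 0.03 (SE, DESeq). PCBP2, which promotes MAVS decay, shares its locus with PRR13 and others, and RNF135, a RIG-I ligase, shares its locus with RP11-848P1.2. These loci fell by 0.21 and 0.41 (log2) in the authors' deposited table, but neither passed by Cuffdiff. Where only loci of 1 symbol were kept, 0 of the list fell by DESeq adjusted p. In the Cuffdiff table, 0 of the 15 loci fell by q and 2 at an unadjusted p under 0.05.

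Among interferon genes, receptors and the factor ISGF3, 8 of 10 tested loci rose and 0 fell by DESeq adjusted p in the authors' deposited table, with 0 lower at an unadjusted p under 0.05. By Cuffdiff 5 of 6 rose and 0 fell, 0 also at an unadjusted p under 0.05. Of all tested loci, 18.0% rose and 19.7% fell by DESeq, and 17.8% and 17.9% of all tested genes by Cuffdiff. The median log2 fold change was 2.36 in the authors' deposited table, and 1.54 over the 6 loci with a mean of at least 100 counts. At an adjusted p under 0.01, 6 loci rose. STAT2, a subunit of ISGF3, rose by 2.52 on the log2 scale there, and the locus of IRF9 and RNF31 went from 2468 to 11372 normalized counts (DESeq). The interferon genes themselves stayed near the detection floor in the authors' deposited table. IFNB1 went from 0.165 to 2.52 normalized counts (DESeq adjusted p 0.0773) and IFNE from 2.26 to 4.91 (DESeq adjusted p 0.483) in the authors' deposited table. There, the near-identical copies IFNL2 and IFNL3 went from 0.168 to 3.81 and 4.42 (DESeq adjusted p 0.0188 and 0.0105). A fold against such control levels depends on the fit and is not given.

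The list of OAS genes and their partners held 7 loci, of which 4 rose and 2 fell, and the median was 3.35 on the log2 scale of the authors' deposited table. The shares were 57.1% and 28.6%, against 18.0% and 19.7% of all tested loci. Without OAS2 and OASL, whose means were under 100 counts, 2 of the other 5 loci rose and the median lay below 0. OAS1, OAS2, OAS3 and OASL are enzymes switched on by double-stranded RNA or relatives of them. They rose by 4.66, 7.20, 3.35 and 4.85 on the log2 scale of the authors' deposited table (DESeq). OAS2 rose from 0.955 control counts with an SE of 0.85, and OASL from 2.23 with an SE of 0.61. ABCE1, a factor of ribosome recycling, fell by 0.33 (log2, the authors' deposited table, DESeq).

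In the list of endosomal Toll-like receptors and their helpers, 4 of 7 tested loci rose and 1 fell, and the median was 0.58 on the log2 scale of the authors' deposited table. The shares were 57.1% and 14.3%, against 18.0% and 19.7% of all tested loci. CTSS, a protease that cleaves these receptors, rose from 21.9 to 14005 normalized counts there, by 9.32 ± 0.18 on the log2 scale (SE, DESeq adjusted p listed as 0). TLR7 went from 0.658 to 3.17 normalized counts by the authors' deposited table and missed the threshold (DESeq adjusted p 0.273). CD14, a helper of nucleic acid uptake, missed it at −0.30 (DESeq adjusted p 0.266, the authors' deposited table). TLR9, in a locus with TWF2, fell by 0.20 on the log2 scale there.

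Around PKR, 8 of 17 loci rose and 4 fell, and the median was 0.08 on the log2 scale of the authors' deposited table. The shares were 47.1% and 23.5%, against 18.0% and 19.7% of all tested loci, and by Cuffdiff 5 rose and 4 fell. DNAJC3, a chaperone that inhibits PKR, rose by 1.47 ± 0.03 there and the stress factor ATF4 by 0.36 ± 0.02, while EIF2B3, a subunit of the exchange factor that eIF2 needs, fell by 0.42 on the log2 scale (DESeq).

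In the remaining lists more loci fell than rose in the authors' deposited count table, where 18.0% of all tested loci rose and 19.7% fell. Of 18 other double-stranded RNA binding proteins and helicases, 3 rose and 13 fell, and their median was −0.19 by the authors' deposited table, whereas by Cuffdiff 2 rose and 6 fell, against 17.8% and 17.9% of all genes tested. The editor ADARB1, relative of ADAR, fell by 0.87 on the log2 scale of the authors' deposited count table, but was at −0.17 by Cuffdiff, where it missed the threshold (q 0.685). DHX36, a helicase of G-quadruplex RNA, rose by 0.47 in the authors' deposited table and STAU1 by 0.063 (DESeq), but STAU1 not by Cuffdiff (q 0.151). The most abundant of them, the helicase DDX3X, fell by 0.062 in the authors' deposited table, and not by Cuffdiff (q 0.611). DDX1 and DDX21 missed the threshold there, at −0.049 and −0.058 (DESeq adjusted p 0.108 and 0.128, the authors' deposited table). Of 16 loci of the RNA exosome, the SKI complex and ZAP cofactors, 1 rose and 10 fell, with a median of −0.18 in the authors' deposited table, and 1 and 5 by Cuffdiff. The exosome subunit EXOSC5 fell by 1.88 (log2, the authors' deposited table), with a Cuffdiff q of 0.0907, and EXOSC1 rose by 0.30. TTC37, the most abundant of them and a SKI subunit, missed the threshold at −0.037 (DESeq adjusted p 0.306, the authors' deposited table). Of 12 loci for mitochondrial RNA handling, the setting in which PNPT1 works, 2 rose and 7 fell, and their median was −0.15 by the authors' deposited table, whereas by Cuffdiff 3 rose and 4 fell. The locus of KIAA0391, a subunit of mitochondrial RNase P, and PSMA6 rose by 1.06 and HSD17B10, another subunit, by 0.36 in the authors' deposited table (DESeq). LRPPRC, which stabilises mitochondrial mRNA, fell by 0.47 on the log2 scale there, and GRSF1, the most abundant and a granule protein, by 0.16 (DESeq), but GRSF1 not by Cuffdiff (q 0.219). SUPV3L1, the helicase that partners PNPT1, missed the threshold in the authors' deposited count table at −0.0014 (DESeq adjusted p 0.991) and passed by Cuffdiff at 0.21 (q 0.0417). SLIRP and TRMT10C missed it by both tools, at 0.073 and −0.0073 in the authors' deposited count table.

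**Figure D5:**
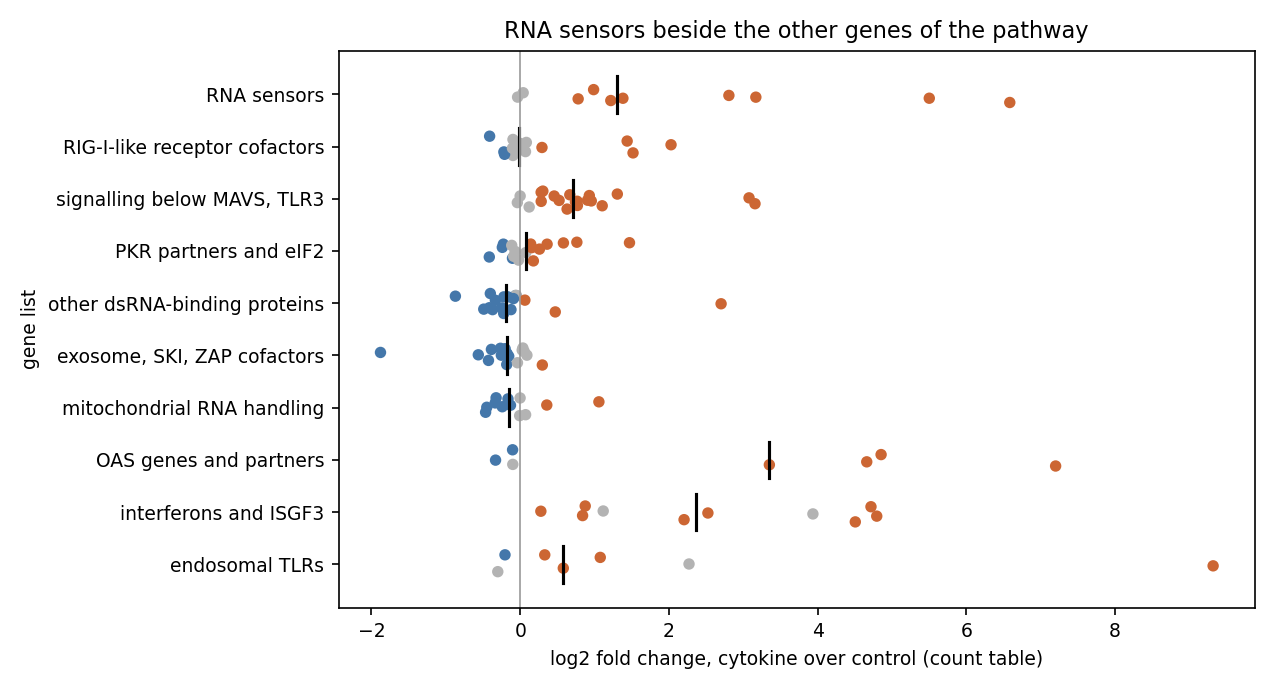
Log2 fold change, cytokine over control, of every tested locus of the members and the 9 lists in the authors' deposited count table. Orange points are higher and blue points lower at a DESeq adjusted p under 0.05, grey points did not pass, and black bars are medians, 1.30 for the members and 0.71 for signalling below MAVS and TLR3.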

How the data were processed

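The submitters' processing notes name STAR 2.5.2b, StringTie, DESeq and Cuffdiff 2.2.1 on build hg38. For the read counter, strand setting and annotation: not given in the sources used here. Hence reads of overlapping or antisense genes cannot be told apart. In the count tables the authors deposited, the signal is a mean of normalized counts over all 6 libraries, and the log2 values give cytokine relative to control with errors, per the file headers. Test statistics make up the score columns that the authors deposited. Every p-value and q-value was deposited by the authors, from DESeq or Cuffdiff. The FPKM values are the authors' deposited Cuffdiff group values, and the smallest Cuffdiff p was 5e-05. The planned tests on values per library were not run, because these tables hold group values only, and the authors' adjusted p and q at a threshold of 0.05 were used as theirs.

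Members and lists were chosen with earlier results of these data known. The named genes were every member and, of each list, the called loci with the largest rise and fall, the most abundant locus and all that missed the threshold where these were 3 or fewer. Of members' transcripts, those with the highest FPKM and all called with at least 1 FPKM were named, and others were named after their values were seen. That also holds for GCA, for DHX58 and PNPT1 transcripts under that level, and for further list genes, namely TRIM25, CYLD, RIOK3, TICAM1, IRF3, UNC93B1, TBK1, DHX36, STAU1, HSD17B10, OAS1, OASL, STAT2, IRF9, IFNL2 and IFNL3. Group means came from the deposited mean and fold change, taking 3 libraries in each of 2 groups as equal, and 95% intervals from the deposited SE. The re-centring, which subtracts the median log2 fold change of abundant loci, was run on simulated data, with no outcome reported here. It takes that median as unchanged by the cytokines. Simulated data cannot show whether this holds in these cells, and it was not tested. Transcript starts and coding lengths came from GENCODE release 44, of which 51 of 54 members' transcripts were matched without their version numbers. Promoters came from RefSeq (GRCh38.p14). The tools were matplotlib 3.10.9, scipy 1.17.1, numpy 2.4.6 and pandas 2.3.3 under Python 3.11.15. Some genes and 1 sequence window are not reported here, though the list counts include every tested locus.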

Additional observations from a re-analysis of the deposited data

How the results depend on the processing

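Over the alternatives run, 6 to 8 members rose and 0 fell, and 8 to 11 of their transcripts rose and 0 fell. TLR3 left the tested set at a mean of at least 100 counts, and ADAR and DDX58 left it where only loci of 1 symbol were kept. ZC3HAV1 and the locus that DDX58 shares with TOPORS did not reach 2-fold, while transcripts named DDX58 rose 8.02-fold by Cuffdiff. Of the other lists, 51 loci rose, but 21 at 2-fold or more, and 40 fell, but 1 at 2-fold or more, 26 in loci of 1 symbol and 21 in the authors' deposited Cuffdiff table. The 2-fold limit and the loci of 1 symbol admit fewer loci by construction, and for Cuffdiff the cause was not tested. Near-0 log2 values turned sign in the Cuffdiff table and after subtracting the median of abundant loci, −0.06: MAVS to 0.018 and 0.021, TRAF3 to 0.091 and 0.017, AZI2 to 0.11 and 0.055, DDX1 to 0.022 and 0.0071, TTC37 to 0.017 and 0.019, SUPV3L1 to 0.21 and 0.054, and TRMT10C to 0.041 and 0.048. None of these 7 passed the DESeq threshold before. After that subtraction the adjusted p was 0.711 for MAVS and 0.0710 for PNPT1, and 6197 loci of all tested rose and 5142 fell, against 5442 and 5946. Over all alternatives, 78 of 99 values of named genes other than the members kept direction and side of the threshold. For named transcripts, 26 of 31 kept the side of the threshold. Their direction could not change, because these alternatives reuse the same log2 values. Of 126 counts for single lists, 96 stayed within 1.5 times the count reported. No paired analysis was possible because the tables hold no values per library, and for the same reason no replicate could be left out. For TLR3, OAS2, OASL and the interferon genes, control counts near 0 limit the size of the change.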
